A study of Mus musculus with 4 samples.

Results

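The cytosolic ribosomal protein genes were read in mammary tumours of 2 Elf5 genotypes. They were taken from the count table by symbol: protein-coding genes of the GENCODE annotation (GRCm38) named Rpl or Rps followed by a digit, or Rplp0, Rplp1, Rplp2 and Rpsa. Rps6k kinases and symbols with -ps, which mark pseudogenes, were left out. The rule gave 86 members among 51826 rows: 46 genes of the large (60S) subunit, 31 of the small (40S) subunit, 8 paralogue-like genes (Rpl3l, Rpl7l1, Rpl10l, Rpl22l1, Rpl36al, Rpl39l, Rps27l and Rps27rt) and Rps19bp1, a binding partner of Rps19 that is not itself a ribosomal protein. Of the 86 members, 84 passed the filter on low counts. Rpl10l, which had 0 counts in all 4 libraries, and Rpl3l did not pass.

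The tested tumours were C3-T+ Elf5+/- (HET, 2 libraries) and the comparison tumours were C3-T+ Elf5+/+ (WT, 2 libraries). The comparison asks which transcripts differ between tumours with 1 working allele of Elf5, an ETS transcription factor of the mammary luminal lineage, and tumours with both. All tumours carried C3-T, which the labels do not spell out. They were dissociated with 2 enzymes, collagenase and hyaluronidase, and tumour cells were enriched by a sort on CD45 (leukocytes), CD31 (endothelium) and TER119 (erythroid cells) before total RNA was taken. The HET titles share an identifying number, so both HET tumours may come from 1 animal, which the labels do not say. The p-values therefore measure only the spread between these samples. Age is not given in the sources used here.

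Each ribosome is built from a fixed set of proteins, each held in a single copy except those of the stalk, and the genes for them lie scattered over the chromosomes. Their messages are short, abundant and share a 5′ terminal oligopyrimidine (TOP) tract, an unbroken run of C and T that begins at the first transcribed base. The tract places their translation under the kinase mTOR, so growth signals set the output of the whole family together. Ribosomal protein messages have also been copied back into the genome many times, which left mouse chromosomes with many processed pseudogenes that differ little in sequence from their parent genes.

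The starts of 7 members described in the results are shown, 6 with a pyrimidine run near the annotated start and 1 without. They give 30 bases before and 20 bases after the annotated start (RefSeq, GRCm38.p6), on the strand of the gene, and capitals mark the longest unbroken run of C and T that reaches within 10 bases of the start. None of the marked runs begins exactly at the annotated first base.
Rplp2: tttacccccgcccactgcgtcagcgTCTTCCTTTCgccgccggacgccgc
Rpl15: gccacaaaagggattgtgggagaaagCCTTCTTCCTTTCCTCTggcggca
Rpl34: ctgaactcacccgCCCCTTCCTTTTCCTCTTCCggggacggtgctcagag
Rpl35: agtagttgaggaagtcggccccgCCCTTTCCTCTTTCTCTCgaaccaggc
Rps6: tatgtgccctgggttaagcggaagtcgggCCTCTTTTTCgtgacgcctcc
Rpl22l1: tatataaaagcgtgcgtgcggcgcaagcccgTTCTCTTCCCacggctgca
Rpl24: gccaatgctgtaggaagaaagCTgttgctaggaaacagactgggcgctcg
Rplp2, of the ribosomal stalk, lies at chr7:141447621-141447670 on the plus strand, with a run of 10 bases. Rpl15, a scaffold of the large subunit, lies at chr14:18270967-18271016 on the minus strand, with a run of 17 bases. The run was 20 bases long in Rpl34 (chr3:130730318-130730367, minus strand) and 18 bases long in Rpl35 (chr2:39005112-39005161, minus strand), both of the large subunit. Rps6, the substrate of S6 kinase, lies at chr4:86857348-86857397 on the minus strand, and Rpl22l1, a paralogue of Rpl22, at chr3:28805478-28805527 on the plus strand, each with a run of 10 bases. The window of Rpl24 (chr16:55966245-55966294, plus strand), also of the large subunit, held no run longer than 2 bases within 10 bases of the start and is given for contrast.

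RefSeq start windows matched 66 of the 86 members by symbol, in 78 windows. A run of at least 8 C or T, searched on the strand of the gene only, reached within 10 bases of the start in 38.5% of these windows, against 13.6% of 20025 windows of other protein-coding genes and 13.7% of all 32851 windows. Among large- and small-subunit genes the share was 41.8% of 67 windows. These annotated starts need not be the starts used in the tumours. The 29 tested members with such a run had a median HET/WT log2 fold change of -0.19, and the 35 tested members with a window and no run had -0.24.

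Libraries totalled 12695132 to 15307939 estimated counts. Levels are given as CPM, counts scaled to library size, with the sizes adjusted by the trimmed mean of M values (TMM) in edgeR. Elf5 stood at 5.39 CPM in HET 1 and 10.6 in HET 2, against 35.6 in WT 1 and 4.70 in the second WT library, which therefore lay below both HET libraries and is called the library labelled WT 2. Every direction below rests on that label. Rows at 0 made up 44.5% of that library and 29.9% to 31.3% of the rest. Across 21607 genes tested for HET over WT, 0 passed a Benjamini-Hochberg adjusted p under 0.05 in edgeR's quasi-likelihood test, and 817 had an unadjusted p under 0.05.

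Ribosomal protein messages did not divide the tumours by genotype: they were low in HET 1 and the library labelled WT 2 and high in HET 2 and WT 1. Summed over the 86 genes, the level was 14623 CPM in HET 1 and 25979 in HET 2, against 28455 in WT 1 and 18018 in the library labelled WT 2. The groups overlapped, and each had 1 high and 1 low library. The mean was 20301 ± 8030 CPM in HET and 23236 ± 7380 in WT (SD, n = 2 each), a log2 ratio of -0.20 with an exact two-sided permutation p of 0.667. With 2 libraries against 2, that test cannot go below 0.333. Within HET the higher library had 1.78 times the level of the lower one, and within WT 1.58 times. In bulk RNA, fewer cells of a type and less RNA per cell cannot be told apart.

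As a share of all counts, the genes took 1.54% in HET 1 (exact 95% interval 1.54 to 1.55), 2.76% in HET 2 (2.75 to 2.77), 2.72% in WT 1 (2.71 to 2.73) and 1.65% in the library labelled WT 2 (1.65 to 1.66). Such intervals treat each estimated count as an independent read and leave out the spread between tumours. The table carries no molecular identifiers and several reads may stem from 1 molecule, so the intervals may understate counting error as well. The large-subunit genes summed to 9226 CPM in HET 1 and 16320.0 in HET 2, against 17518 in WT 1 and 11134 in the library labelled WT 2. The small-subunit genes summed to 5264 CPM in HET 1 and 9454 in HET 2, against 10643 in WT 1 and 6654 in the library labelled WT 2. Both subunits showed the same order of libraries, with HET 1 lowest and WT 1 highest.

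Most members shared this pattern. HET 1 held the lowest level of the 4 libraries in 71 of 84 tested members (84.5%), against 23.3% of all genes tested. The library labelled WT 2 held it in the other 13 (15.5%), against 38.1% of all genes. WT 1 held the highest level in 52 members (61.9%), against 24.7% of all genes, and HET 2 in 26 (31.0%), against 23.5%. HET 2 exceeded HET 1 in 84 of 84 members, with a median log2 ratio of 0.89, whereas 49.7% of all genes tested stood higher in HET 2 and their median was -0.01. WT 1 exceeded the library labelled WT 2 in 76 of 84 members, with a median of 0.69, against 58.4% of all genes and a median of 0.17. All 31 small-subunit genes lay above 0 in both ratios, and the large-subunit genes did so in 46 and 40 of 46. The 8 members below 0 in the WT ratio were Rpl5, Rpl22, Rpl24, Rpl29, Rpl35a, Rplp1, Rps27l and Rpl39l.

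**Figure D1:**
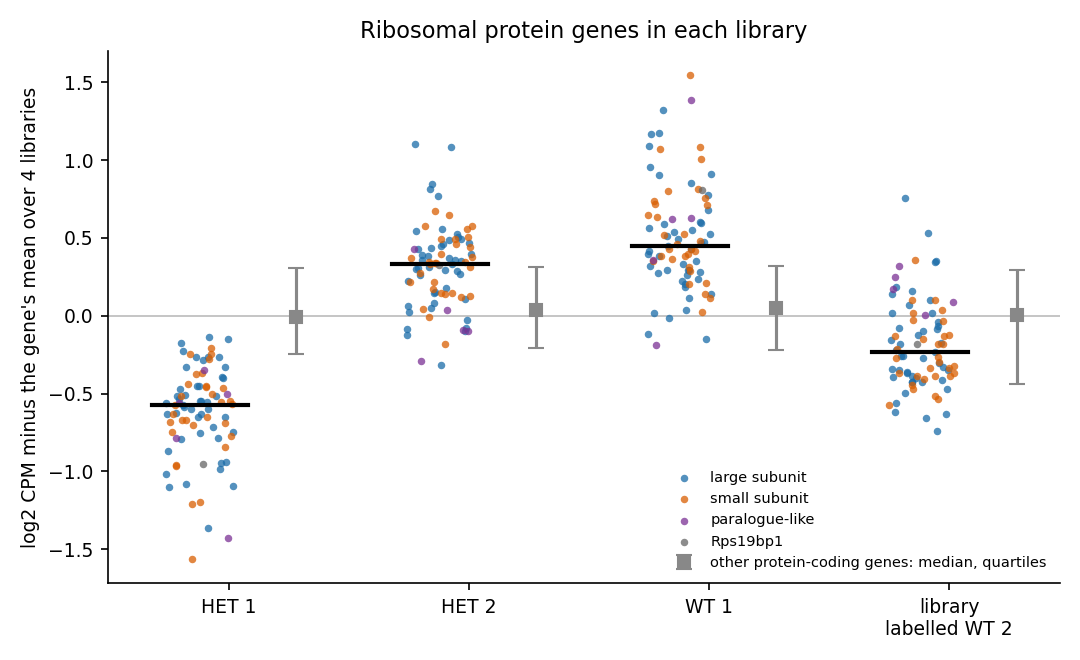
Level of each ribosomal protein gene in each library, as log2 CPM minus the gene's mean over the 4 libraries, for the 83 tested members with a count in every library. Black bars are medians of the members. Grey squares with bars are the median and quartiles of the other protein-coding genes. Over all 84 tested members the medians lie at -0.58 in HET 1 and 0.33 in HET 2, against 0.46 in WT 1 and -0.23 in the library labelled WT 2. The medians of the other genes lie between -0.01 and 0.05. These values and the grey squares use log2 CPM with a prior count of 2. The points and black bars do not, so the bars may differ slightly from the values given.

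The log2 ratio of HET 2 over HET 1 was larger in size than the fold change of HET over WT in 72 of 84 members, against 51.9% of all genes tested. That of WT 1 over the library labelled WT 2 was larger in 64 members, against 65.9% of all genes. A ratio of single libraries varies more than one of group means. Across the 84 members, which are not independent replicates, both within-genotype ratios had a Pearson correlation of 0.44, against 0.11 across other protein-coding genes. Of 9386 other protein-coding genes with a mean of at least 10 CPM, 5.19% reached the members' median ratio of HET 2 over HET 1 and 11.5% their median ratio of WT 1 over the library labelled WT 2.

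The stalk proteins recruit the elongation factors to the ribosome. Rplp0, which anchors the stalk, had 442 CPM in HET 1 and 699 in HET 2, against 728 in WT 1 and 516 in the library labelled WT 2. Rplp2 had 419 CPM in HET 1 and 742 in HET 2, against 818 in WT 1 and 510.0 in the library labelled WT 2. Both were lowest in HET 1 and highest in WT 1, and the groups overlapped. Near-identical copies held 25.4% of the counts of Rplp0 plus its copies. With them added, HET 2 was the highest library of Rplp0, with 889 CPM against 853 in WT 1. Their log2 fold changes were -0.12 ± 0.38 for Rplp0 and -0.19 ± 0.43 for Rplp2 (SE), smaller than their standard errors, and that of Rplp0 turned positive (0.05) when libraries were scaled by total counts alone. Rplp1, their partner, was the steadiest of the 84 members, with 418 CPM in HET 1 and 476 in HET 2, against 456 in WT 1 and 493 in the library labelled WT 2. Its SD of log2 CPM over the 4 libraries was 0.10.

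Rpl5 and Rpl11 join 5S ribosomal RNA in a particle that can also bind Mdm2 and so stabilise p53. Rpl5 (chr5:107900502-107909005) had 18.4 CPM in HET 1 and 34.1 in HET 2, against 48.4 in WT 1 and 62.7 in the library labelled WT 2. Both HET libraries lay below both WT libraries, and the log2 fold change was -1.08 ± 0.39 (SE; edgeR unadjusted p = 0.0324, adjusted p = 0.986). Near-identical copies held 94.9% of the counts of Rpl5 plus its copies, and with them added the value was -0.21 ± 0.33 (edgeR unadjusted p = 0.554). Rpl11 (chr4:136028265-136053428) had 85.0 CPM in HET 1 and 190.0 in HET 2, against 209 in WT 1 and 137 in the library labelled WT 2. Its groups overlapped, with HET 1 lowest and WT 1 highest, at a log2 fold change of -0.33 ± 0.46. Copies held 50.7% of the counts of Rpl11 plus its copies. With them added it had 212 CPM in HET 1 and 412 in HET 2. It then had 351 in WT 1 and 275 in the library labelled WT 2, so that HET 2 was highest. The log2 fold change with copies was -0.004 ± 0.41.

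Other large-subunit genes with known partners outside peptide synthesis were among the 13 members with the library labelled WT 2 lowest. Rpl23, another protein that binds Mdm2, had 106 CPM in HET 1 and 209 in HET 2, against 247 in WT 1 and 105 in the library labelled WT 2. Rpl26, which sits at the exit of the peptide tunnel and is a target of the modifier UFM1, had 538 CPM in HET 1 and 849.8 in HET 2, against 754 in WT 1 and 507 in the library labelled WT 2. Rpl10, which joins the large subunit last and is mutated in some human T cell leukaemias, had 299 CPM in HET 1 and 484 in HET 2, against 431 in WT 1 and 268 in the library labelled WT 2. In all 3 genes HET 2 and WT 1 were the high libraries, with WT 1 highest in Rpl23 and HET 2 highest in Rpl26 and Rpl10. The groups overlapped, and the log2 fold changes were -0.16 ± 0.53, 0.14 ± 0.39 and 0.16 ± 0.40 (SE). That of Rpl23 turned to 0.01 under total-count scaling. Near-identical copies held 58.0% of the counts of Rpl23 plus its copies, 0.463% for Rpl26 and 13.6% for Rpl10. With copies added, the log2 fold change of Rpl23 was 0.23 ± 0.50. HET 2 was then its highest library, with 557 CPM against 492 in WT 1.

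Among small-subunit genes, Rps6, the protein that S6 kinase phosphorylates downstream of mTOR, had 122 CPM in HET 1 and 255 in HET 2, against 282 in WT 1 and 169 in the library labelled WT 2. Rpsa, also known as the laminin receptor precursor and needed for small-subunit maturation, had 682 CPM in HET 1 and 1161 in HET 2, against 1375 in WT 1 and 911 in the library labelled WT 2. The 2 genes shared the order HET 1, library labelled WT 2, HET 2, WT 1 from low to high, with overlapping groups. Their log2 fold changes were -0.26 ± 0.46 and -0.31 ± 0.42 (SE). Near-identical copies held 66.9% of the counts of Rps6 plus its copies and 1.44% for Rpsa. With copies added, Rps6 had 459 CPM in HET 1 and 737 in HET 2. It then had 758 in WT 1 and 523 in the library labelled WT 2, in the same order. Its log2 fold change with copies was -0.10 ± 0.39.

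Rps19, the gene most often mutated in human Diamond-Blackfan anaemia, had 180.1 CPM in HET 1 and 389.9 in HET 2, against 345 in WT 1 and 202 in the library labelled WT 2. Rps14, whose loss of 1 copy marks the human 5q- syndrome, had 136 CPM in HET 1 and 239 in HET 2, against 177 in WT 1 and 116 in the library labelled WT 2. In both, HET 2 was the highest library, and the log2 fold changes were 0.06 ± 0.48 and 0.36 ± 0.40 (SE). Rps3, which lies at the entry of the mRNA channel and also takes part in DNA repair, had 296 CPM in HET 1 and 550.4 in HET 2, against 785 in WT 1 and 513 in the library labelled WT 2. Rps27a, made as a fusion with ubiquitin, had 129.8 CPM in HET 1 and 228 in HET 2, against 275 in WT 1 and 221 in the library labelled WT 2. Rps3 and Rps27a were lowest in HET 1 and highest in WT 1, with overlapping groups and log2 fold changes of -0.62 ± 0.43 and -0.47 ± 0.37 (SE).

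Between genotypes, 0 of 84 tested members passed an adjusted p under 0.05, as did 0.0% of all genes tested, and the smallest adjusted p among members was 0.986 in edgeR. An unadjusted p under 0.05 was reached by 5 members (5.95%), against 3.78% of all genes. All 5 were lower in HET, a direction in which 1.83% of all genes had such a p. The count depended on scaling: it was 7 with relative log expression factors, 3 with upper-quartile factors and 0 with total counts only, where 873 of all genes had such a p. Over the members the median HET/WT log2 fold change was -0.24, with quartiles of -0.58 and -0.04, against 0.04 over all genes tested. The fold change lay below 0 in 64 of 84 members (76.2%), against 47.3% of all genes. The median was -0.16 over the 46 large-subunit genes, of which 34 were below 0, and -0.31 over the 31 small-subunit genes, of which 23 were below 0.

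Scaling by total counts alone placed the members' median at -0.07 and that of all genes at 0.22, with 47 of 84 members below 0 and the large-subunit median at 0.02. The members' median minus that of all genes was -0.28 (log2) with TMM. The background chosen bears on this gap: fitted among protein-coding genes only, it was -0.21. It was smaller still in the 3 shortest transcript length classes, against other protein-coding genes of at least 10 CPM. There the members had medians of -0.11 (up to 600 bp), -0.19 (600 to 1000 bp) and -0.23 (1000 to 1500 bp), against -0.08, -0.12 and -0.14 for the other genes of those classes. It was not smaller in the longer classes. In the class from 1500 to 2500 bp the medians were -0.35 for 8 members and -0.14 for the others, and from 2500 to 4000 bp -0.53 for 4 members and -0.14. The direction rested on single libraries. Without HET 1 the members' median was 0.09 with 37 of 84 below 0, and without WT 1 it was 0.16 with 28 below 0. Without HET 2 it was -0.80 with 84 of 84 below 0, and without the library labelled WT 2 it was -0.54 with 78 below 0.

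Both HET libraries lay below both WT libraries in 12 of 84 members (14.3%), against 15.9% of all genes tested. Both HET libraries lay above both WT libraries in 0 members, against 19.6% of all genes. The 12 were Rpl5, Rpl10a, Rpl17, Rpl34, Rpl35a, Rpl37, Rps7, Rps20, Rpl7l1, Rpl22l1, Rpl36al and Rpl39l, of which 4 are paralogue-like. The share of members that separate in the lower direction was thus near the background.

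**Figure D2:**
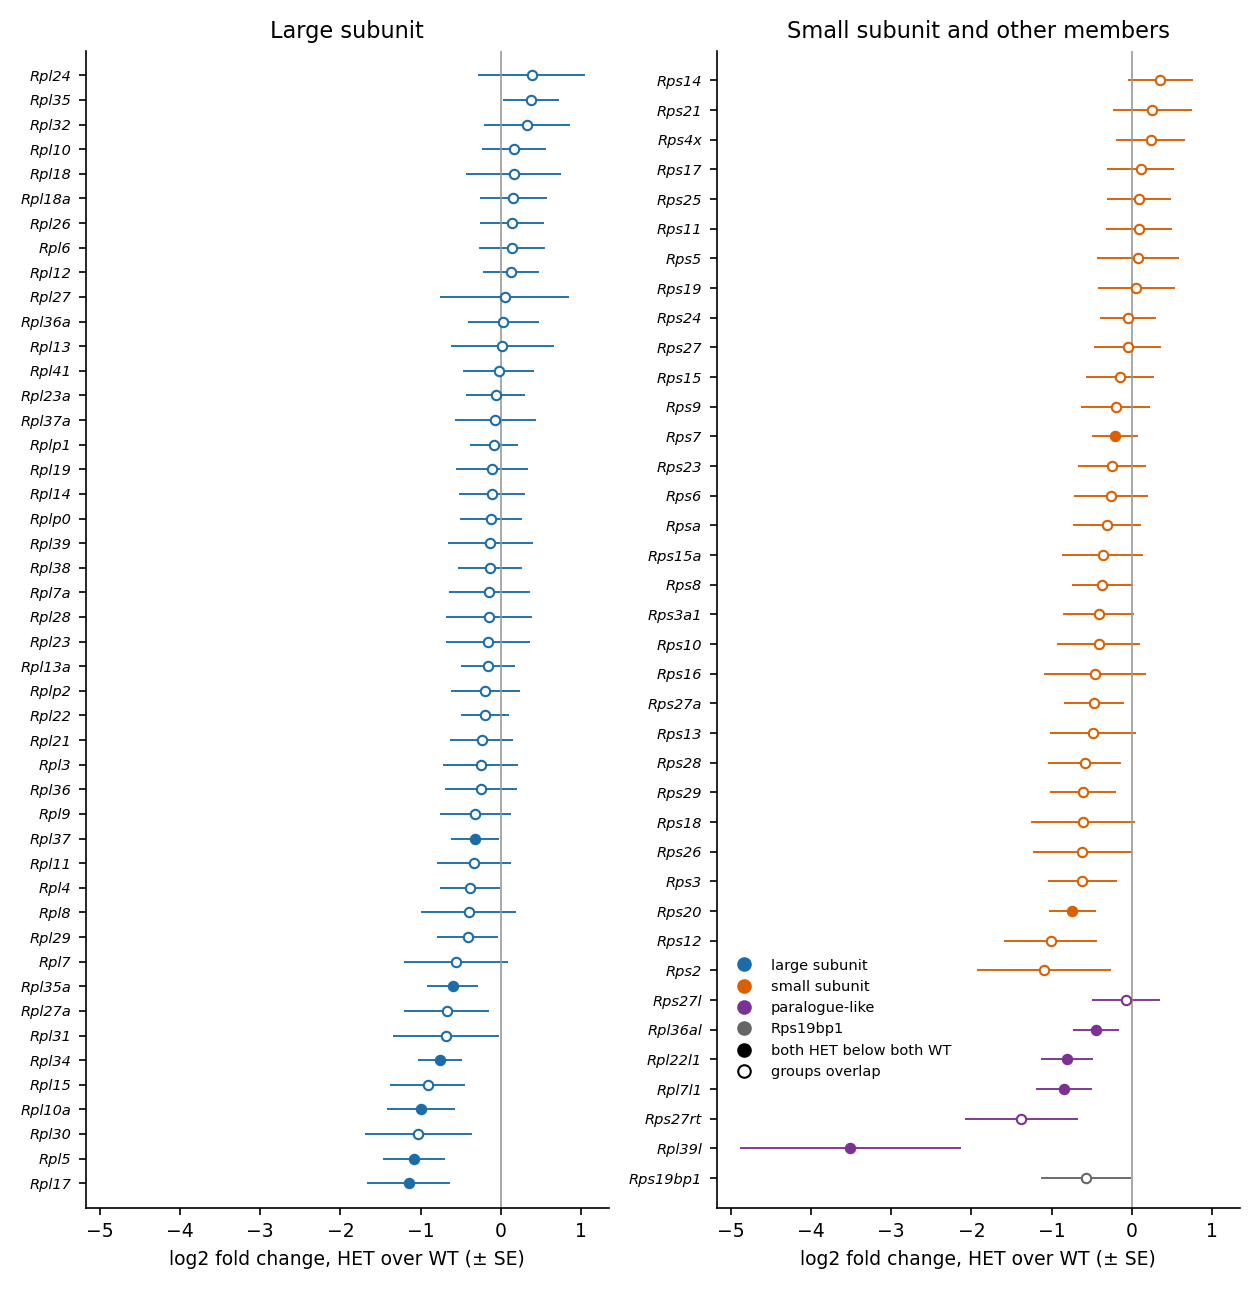
Log2 fold change of HET over WT with its standard error for the 84 tested members, large-subunit genes on the left and the remaining members on the right. Filled points are the 12 members in which both HET libraries lay below both WT libraries, and open points are members whose groups overlap. Values run from -3.51 (Rpl39l) to 0.38 (Rpl24 and Rpl35), and 0 members passed the adjusted test. With total-count scaling, 47 rather than 64 members lie below 0.

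The members of smallest p that were lower in HET came from both subunits. Rps20, of the head of the small subunit, lies at chr4:3831334-3835665 and had 92.7 CPM in HET 1 and 121 in HET 2, against 181 in WT 1 and 176 in the library labelled WT 2. Rpl34 (chr3:130726831-130730398) had 70.2 CPM in HET 1 and 77.2 in HET 2, against 128 in WT 1 and 122 in the library labelled WT 2. In both genes the HET libraries lay below the WT libraries, and the libraries of a genotype were closer to each other than to those of the other genotype. The log2 fold change of Rps20 was -0.74 ± 0.30 (SE; edgeR unadjusted p = 0.0457, adjusted p = 0.986) and that of Rpl34 was -0.76 ± 0.27 (unadjusted p = 0.0318, adjusted p = 0.986). Both values were smaller with near-identical copies added, at -0.35 for Rps20 and -0.45 for Rpl34, and neither then had an unadjusted p under 0.05. Rpl7l1 (chr17:46773907-46782672), a relative of Rpl7 found on early ribosomal precursors in human cells, had 40.4 CPM in HET 1 and 65.3 in HET 2, against 107 in WT 1 and 82.8 in the library labelled WT 2. It too had both HET libraries below both WT libraries, at -0.85 ± 0.35 (unadjusted p = 0.0525).

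The members of smallest p that were higher in HET all had overlapping groups. Rpl24, mutated in the Belly spot and tail mouse, had 39.5 CPM in HET 1 and 181 in HET 2, against 76.0 in WT 1 and 92.7 in the library labelled WT 2, so that HET held both the lowest and the highest library. Rpl35, at the exit of the peptide tunnel, had 113 CPM in HET 1 and 179 in HET 2, against 129 in WT 1 and 95.7 in the library labelled WT 2. Rpl32 had 271 CPM in HET 1 and 741 in HET 2, against 485 in WT 1 and 322 in the library labelled WT 2. In Rpl35 and Rpl32, HET 2 was the highest library and HET 1 lay inside or below the WT range. The log2 fold changes were 0.38 ± 0.67, 0.38 ± 0.35 and 0.33 ± 0.53 (SE), with unadjusted p of 0.584, 0.328 and 0.561 in edgeR. Rps21 and the X-linked Rps4x had log2 fold changes of 0.26 ± 0.49 and 0.23 ± 0.43, and in both HET 2 was highest and the library labelled WT 2 lowest.

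Counted without their copies, the members that varied most over the 4 libraries, apart from Rpl39l, were Rps2, Rpl27 and Rps27rt. Rps2, which lines the mRNA entry channel, had 19.8 CPM in HET 1 and 80.5 in HET 2, against 171 in WT 1 and 42.9 in the library labelled WT 2, an SD of 1.32 on the log2 scale. Rpl27 had 12.9 CPM in HET 1 and 70.1 in HET 2, against 56.6 in WT 1 and 23.4 in the library labelled WT 2 (SD 1.13). Rps27rt, an intact retrocopy of Rps27, had 2.86 CPM in HET 1 and 7.87 in HET 2, against 20.1 in WT 1 and 7.69 in the library labelled WT 2 (SD 1.13). All 3 had HET 1 as the lowest library, and their groups overlapped. Near-identical copies held 85.9% of the counts of Rps2 plus its copies, 76.1% for Rpl27 and 2.85% for Rps27rt. With copies added, Rps2 had 301 CPM in HET 1 and 529 in HET 2. It then had 977 in WT 1 and 388 in the library labelled WT 2. Rpl27 with copies had 128 CPM in HET 1 and 234 in HET 2. Its values were 189 in WT 1 and 118 in the library labelled WT 2, which was then lowest. All SD given here are of the genes alone. After Rplp1 the steadiest members were Rps7, Rpl22 and Rpl37, with SD of 0.15, 0.19 and 0.22, against a median of 0.51 over the members and 0.42 over other protein-coding genes. Rps7, another protein that binds Mdm2, had 177 CPM in HET 1 and 203 in HET 2, against 221 in WT 1 and 219 in the library labelled WT 2. Rpl37 had 259 CPM in HET 1 and 286 in HET 2, against 373 in WT 1 and 307 in the library labelled WT 2. In Rps7 and Rpl37 the HET libraries lay just below the WT libraries, at log2 fold changes of -0.21 ± 0.28 and -0.32 ± 0.30 (SE).

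The paralogue-like genes are relatives of standard ribosomal protein genes, and some of them take the place of the standard protein in certain tissues. Levels between genes are given per kilobase of merged exon (CPM per kb). Rpl22l1, which can replace Rpl22, had a level per kb of 9.24 in HET 1 and 10.7 in HET 2, against 20.2 in WT 1 and 14.8 in the library labelled WT 2. Rpl22 had a level per kb of 84.6 in HET 1 and 106 in HET 2, against 103 in WT 1 and 116 in the library labelled WT 2. The log2 ratio of Rpl22 over Rpl22l1 was 3.20 in HET 1 and 3.31 in HET 2, against 2.35 in WT 1 and 2.98 in the library labelled WT 2, so the standard gene was further above its paralogue in both HET libraries than in either WT library. Rpl22l1 (chr3:28805436-28807424) had 18.4 CPM in HET 1 and 21.3 in HET 2, against 40.3 in WT 1 and 29.3 in the library labelled WT 2, a log2 fold change of -0.81 ± 0.33 (SE; unadjusted p = 0.0474, adjusted p = 0.986 in edgeR), while Rpl22 had -0.20 ± 0.30.

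Rpl39l, which takes the place of Rpl39 in male germ cells, was close to the limit of detection. It had 0 counts in HET 1 and 4 in HET 2, against 21 in WT 1 and 25 in the library labelled WT 2. At this depth a count of 0 allows up to 3 counts, or 0.195 CPM, in HET 1. The fitted log2 fold change was -3.51 ± 1.37 (SE; unadjusted p = 0.0428, adjusted p = 0.986), a size that depends on the fitted prior at such counts. Rpl39 itself had 58.6 CPM in HET 1 and 140.3 in HET 2, against 146 in WT 1 and 71.7 in the library labelled WT 2. Rpl3l, of striated muscle, had 18 counts in HET 1 and 3 in HET 2, against 5 in WT 1 and 0 in the library labelled WT 2. Rpl10l, the testis copy of Rpl10, had 0 counts in every library, which allows up to 0.195 to 0.239 CPM.

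The remaining pairs kept the standard gene well above its relative, except for Rpl36a. Rpl36al and Rpl36a, counted without copies, were at similar levels per kb. The log2 ratio of Rpl36a over Rpl36al was -0.04 in HET 1 and 0.63 in HET 2. It was 0.11 in WT 1 and -0.44 in the library labelled WT 2. Near-identical copies held 55.1% of the counts of Rpl36a plus its copies but 26.1% for Rpl36al. Levels per kb with copies added were not compared. Rpl36al had 42.3 CPM in HET 1 and 50.5 in HET 2, against 69.2 in WT 1 and 57.3 in the library labelled WT 2, and its HET libraries lay below its WT libraries. Rpl7 exceeded Rpl7l1 by a log2 ratio of 3.80 in HET 1 and 4.0 in HET 2, against 4.11 in WT 1 and 2.65 in the library labelled WT 2. Rps27 exceeded the p53-inducible Rps27l by 2.87 in HET 1 and 2.60 in HET 2, against 3.31 in WT 1 and 1.98 in the library labelled WT 2. Rps4l, a transcribed pseudogene of Rps4x that is no member, stayed at 2.80 CPM per kb or less. The fold change of HET over WT lay below 0 in all 6 tested paralogue-like genes, against 47.3% of all genes tested, with a median of -0.83. That of Rps27l (-0.07 ± 0.43, SE) turned positive under upper-quartile and total-count scaling. Among the 6, Rpl39l had no more than 25 counts in any library, and the groups overlapped in Rps27l and Rps27rt.

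Per length, the listed levels of the 77 large- and small-subunit genes differed by 132-fold from highest to lowest mean, although the ribosome holds their products in near-equal numbers. The median of their mean levels was 118 CPM per kb, against 3.54 over all tested protein-coding genes. Rplp1 was highest, with a level per kb of 838 in HET 1 and 954 in HET 2, against 914 in WT 1 and 987 in the library labelled WT 2. Rpl23a, which docks the signal recognition particle, had 701 in HET 1 and 998 in HET 2, against 1039.7 in WT 1 and 735 in the library labelled WT 2. Rpl36 had 530.5 in HET 1 and 955 in HET 2, against 1139 in WT 1 and 629 in the library labelled WT 2. These 3 overlapped over the 4 libraries, so their order does not exceed the spread between libraries. Rps3a1 and Rpl19 came next, with means of 600.4 and 488 CPM per kb. With the longest coding transcript as the length in place of merged exons, 6 of the 10 highest members stayed among the 10 highest.

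At the low end stood Rpl12, Rpl5, Rps12, Rps15a and Rpl30. Rpl12, at the base of the stalk, had a level per kb of 6.12 in HET 1 and 8.46 in HET 2, against 7.58 in WT 1 and 5.76 in the library labelled WT 2. Rpl5 had 4.69 in HET 1 and 8.69 in HET 2, against 12.3 in WT 1 and 16.0 in the library labelled WT 2. Rps12, of the head of the small subunit, had 4.55 in HET 1 and 11.5 in HET 2, against 22.1 in WT 1 and 10.2 in the library labelled WT 2. Each of these overlapped with its neighbour in the order over the 4 libraries. Rps15a and Rpl30 had means of 20.4 and 25.4 CPM per kb. Near-identical copies elsewhere in the genome held 91.0% of the counts of Rpl12 plus its copies, 94.9% for Rpl5, 90.2% for Rps12, 23.2% for Rps15a and 55.9% for Rpl30, so the level listed for the gene is a small part of the total in 3 of the 5.

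Counts of this family depend on how the authors' quantifier divided reads between each gene and its copies. A search of the transcripts with each coding sequence (at least 95% identity over at least 50% of its length) found 528 copy genes for 77 of the 86 members, 515 of them processed pseudogenes. The copies held 31.6% of the counts of genes plus copies in HET 1 (exact 95% interval 31.5 to 31.8) and 28.1% in HET 2 (27.9 to 28.2), against 25.4% in WT 1 (25.2 to 25.5) and 26.9% in the library labelled WT 2 (26.7 to 27.0). Both HET libraries therefore lay above both WT libraries, with an exact two-sided permutation p of 0.333, the smallest that 2 against 2 allows. The intervals take the division of reads between genes and copies as given and do not cover its uncertainty. This division was looked at after the members' values had been seen.

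In 50 members the copies held 5% or more of the counts over the 4 libraries. Among these 50 both HET copy shares exceeded both WT copy shares in 30, both lay below in 3 (Rpl6, Rpl12 and Rpl35), and the groups overlapped in 17, while the median difference of HET minus WT was 7.19 percentage points. The exact 95% interval of a share reached at most 3.75 points to either side, for Rpl22l1. It takes the counts assigned to gene and copies as observed. The uncertainty of dividing reads between near-identical sequences is not in it. All members come from the same 4 libraries and are not independent of each other, so the 30 are not separate observations. Copies were sought for the members only, so no share over all genes can stand beside these counts.

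**Figure D3:**
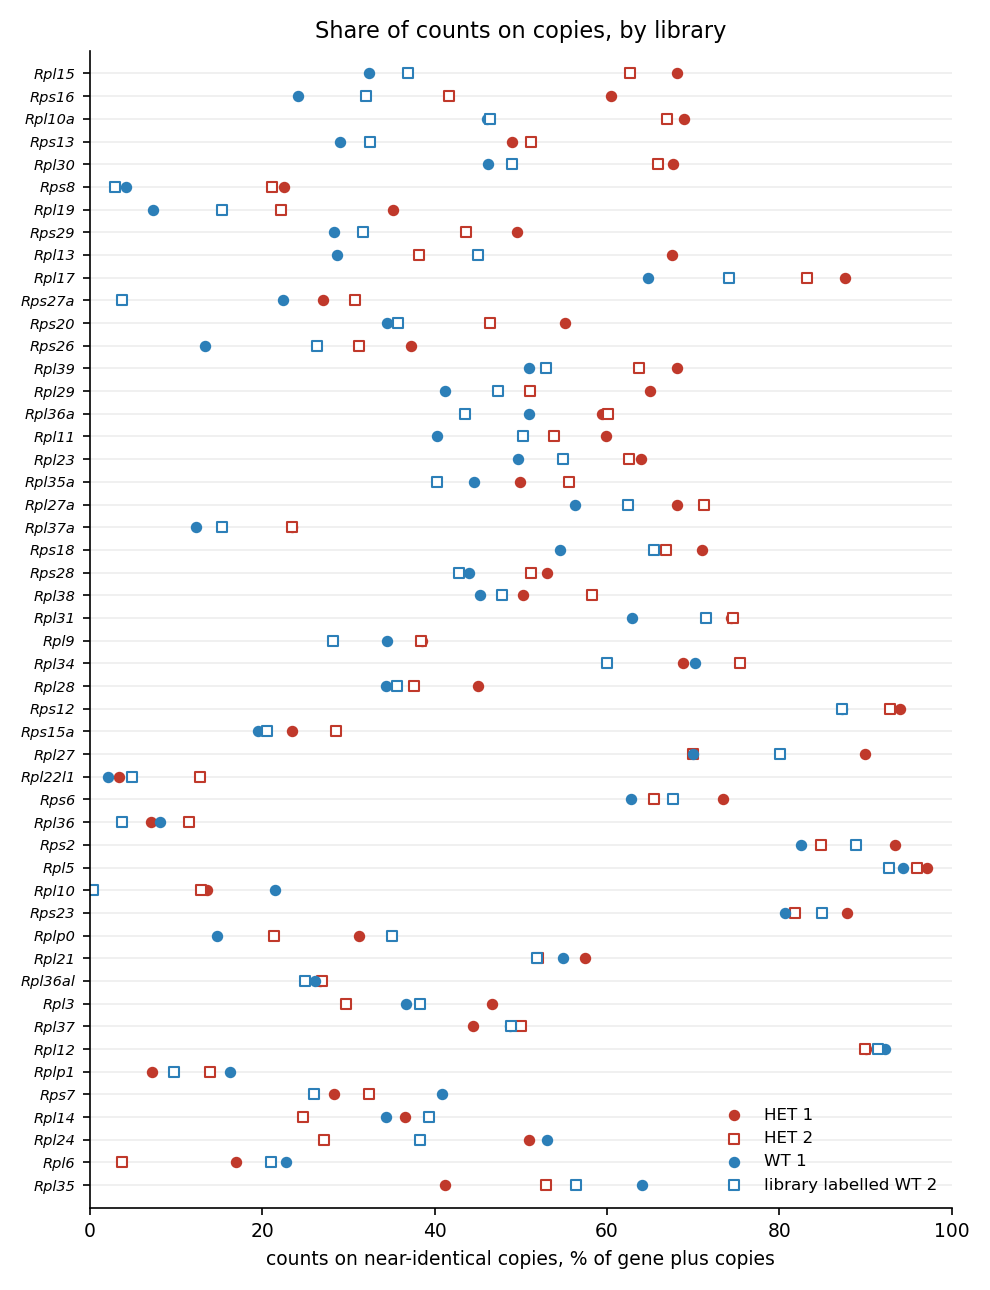
Share of the counts of gene plus near-identical copies that fell on the copies, for the 50 members in which it is 5% or more, ordered by the difference of HET minus WT. Red points are the HET libraries and blue points the WT libraries. In 30 members both red points lie to the right of both blue points, from Rpl15 at the top downward, and in 3 members, with Rpl35 at the bottom, they lie to the left.

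The copy share was most unlike between genotypes in Rpl15. Its copies held 68.1% in HET 1 and 62.7% in HET 2, against 32.4% in WT 1 and 36.9% in the library labelled WT 2. The copy with the most counts, the processed pseudogene Rpl15-ps3 (chr9:22185607-22186221), aligned to the coding sequence with no mismatch and had 2344 counts in HET 1 and 3157 in HET 2, against 1526 in WT 1 and 1126 in the library labelled WT 2. Rpl15 itself had 73.4 CPM in HET 1 and 144 in HET 2, against 265 in WT 1 and 143 in the library labelled WT 2. The gene and its copy thus differed between the genotypes in opposite directions in their means. With all copies added, the log2 fold change of Rpl15 was -0.01 ± 0.42 (SE), against -0.91 ± 0.47 for the gene alone.

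Rpl10a, a protein of the mobile stalk at the ribosome's exit site, had copy shares of 68.9% in HET 1 and 67.0% in HET 2, against 46.1% in WT 1 and 46.4% in the library labelled WT 2. Its log2 fold change was -0.99 ± 0.42 (SE) alone and -0.26 ± 0.41 with copies. Rps16 had shares of 60.5% and 41.7% in HET 1 and HET 2, against 24.1% (WT 1) and 32% (library labelled WT 2), with log2 fold changes of -0.46 ± 0.64 alone and 0.01 ± 0.51 with copies. For Rpl5 the shares were 97.1% and 96.0% in HET 1 and HET 2, against 94.3% and 92.7% in WT 1 and the library labelled WT 2. Its pseudogene Gm15500, which aligned to its coding sequence with no mismatch, had 9559 counts in HET 1 and 10874 in HET 2, against 10129 in WT 1 and 11111 in the library labelled WT 2.

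Rps20 and Rpl34 also had smaller differences with copies added. Rps20 had a copy share of 55.1% in HET 1 and 46.4% in HET 2, against 34.5% in WT 1 and 35.8% in the library labelled WT 2, and its log2 fold change with the copy added was -0.35 ± 0.28 (SE; unadjusted p = 0.264). Rpl34 had -0.45 ± 0.35 with copies (unadjusted p = 0.249), and its copy shares overlapped. In the other direction, the copies of Rpl35 held 41.2% in HET 1 and 52.9% in HET 2, against 64.0% in WT 1 and 56.4% in the library labelled WT 2, and the log2 fold change of Rpl35 was -0.02 ± 0.45 with copies, against 0.38 ± 0.35 alone. Rpl19 and Rpl39 had log2 fold changes of 0.19 ± 0.40 and 0.34 ± 0.50 with copies, both opposite in sign to the gene alone; total-count scaling of the gene alone likewise gave positive values.

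With copies added to every member, 0 of 84 passed the adjusted test (0.0% of 21394 genes), and 1 had an unadjusted p under 0.05 (Rpl39l, which has no copies), against 3.76% of all genes. The median log2 fold change was -0.12, and 60 of 84 lay below 0, against 47.3% of all genes. Both HET libraries lay below both WT libraries in 7 members, against 15.9% of all genes. All 7 (Rpl5, Rpl37, Rps20, Rpl7l1, Rpl22l1, Rpl36al and Rpl39l) were among the 12 that did so without copies. Both HET libraries lay above in 0 members, against 19.6% of all genes.

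Members with few copies gave a second reading. In the 34 tested members whose copies held under 5%, the median log2 fold change was -0.11, 22 lay below 0 and 2 (5.88%) had both HET libraries below both WT libraries, against 15.9% of all genes. In the 50 with 5% or more, the median was -0.33, 42 lay below 0 and 10 (20%) had both HET libraries below both WT libraries. The difference between these sets was not tested. The pattern within genotypes was alike in both sets: HET 2 exceeded HET 1 in 34 of 34 and 50 of 50, with median log2 ratios of 0.86 and 0.89, and WT 1 exceeded the library labelled WT 2 in 31 of 34 and 45 of 50, with medians of 0.65 and 0.72. The part of copy counting in the comparison of genotypes was not tested beyond these values.

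**Figure D4:**
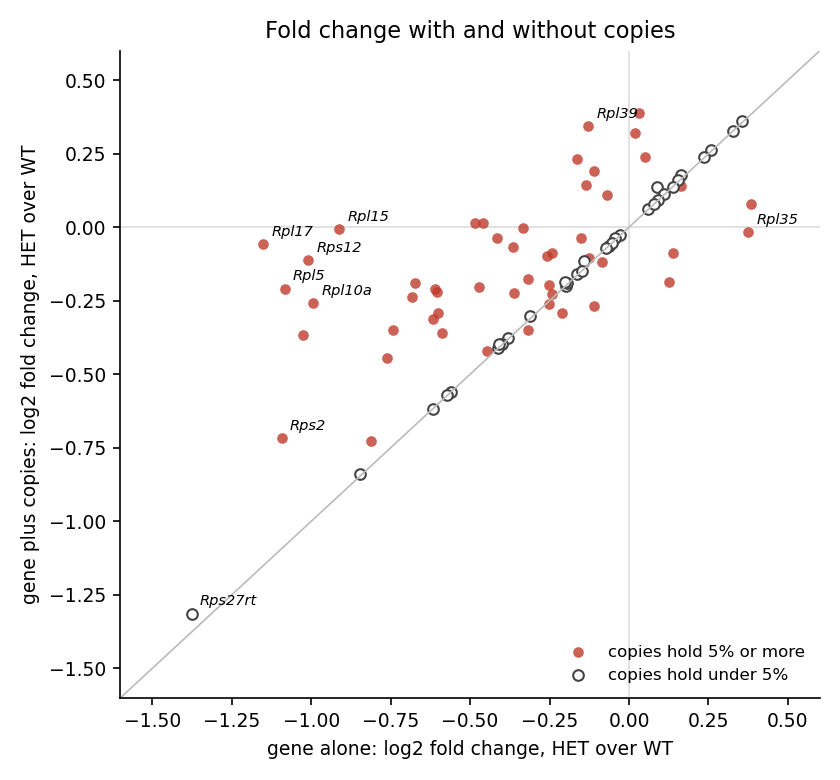
Log2 fold change of HET over WT for each member alone (horizontal axis) and with the counts of its near-identical copies added (vertical axis), for the tested members except Rpl39l, which lies outside the axes. Filled points are members whose copies hold 5% or more of the counts, and the grey line marks equal values. Rpl15, Rpl17, Rps12, Rpl5 and Rpl10a lie near -1 alone and between -0.26 and -0.01 with copies, while Rps2 (-1.09 alone, -0.72 with copies) and Rpl30 (-1.03 and -0.36) shift less. Members with few copies lie on the line.

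The 213 copies that passed the filter had a median log2 fold change of 0.22 for HET over WT, with 136 above 0 and 0 passing the adjusted test, against a median of 0.13 over 857 other processed pseudogenes. Within genotypes the copies had a median log2 ratio of 0.57 for HET 2 over HET 1, where the other processed pseudogenes had -0.01. For WT 1 over the library labelled WT 2 the copies' median of 0.67 was close to the 0.58 of the other processed pseudogenes.

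Several measures of the libraries moved with the members' order. Transcripts of the mitochondrial genome took 8.91% of counts in HET 1 (exact 95% interval 8.90 to 8.93) and 11.8% in HET 2 (11.7 to 11.8), against 11.5% in WT 1 (11.4 to 11.5) and 8.50% in the library labelled WT 2 (8.49 to 8.52), high in the same libraries as the members. Short protein-coding transcripts also stood higher in HET 2 than in HET 1. Among other protein-coding genes of at least 10 CPM, the median log2 ratio of HET 2 over HET 1 was 0.47 for the 79 genes with a longest coding transcript of up to 600 bp and -0.15 for the 1050 genes above 7000 bp. For WT 1 over the library labelled WT 2 these medians were 0.09 and -0.20. In each length class with 4 or more members, the members' medians lay above those of the other genes, between 0.81 and 0.90 for HET 2 over HET 1 and between 0.44 and 0.87 for WT 1 over the library labelled WT 2. The part of transcript length in the members' order was not tested beyond these values.

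**Figure D5:**
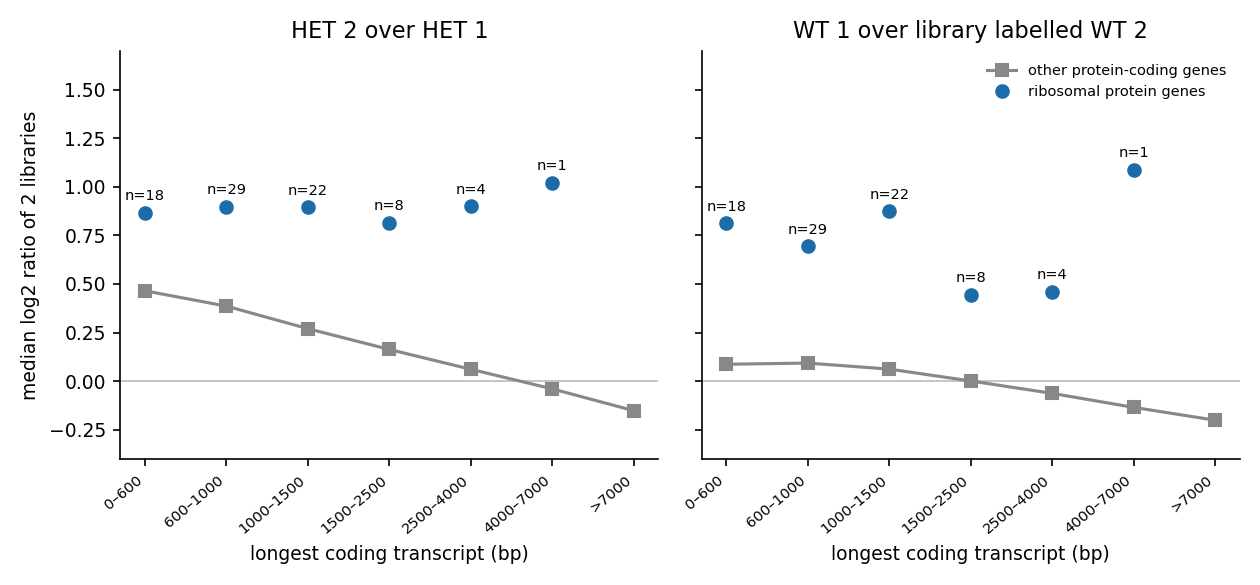
Median log2 ratio of HET 2 over HET 1 (left) and of WT 1 over the library labelled WT 2 (right), by length of the longest coding transcript in bp, for genes of at least 10 CPM. Blue points are the ribosomal protein genes with their number, and grey squares the other protein-coding genes. The grey medians are lower in the longest class than in the shortest (-0.15 against 0.47 on the left, -0.20 against 0.09 on the right), and the blue points lie above them in every class that holds members.

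Markers of other cell types did not all follow the members. The 8 macrophage markers summed to 3753 CPM in HET 1 and 1412 in HET 2, against 1935 in WT 1 and 154 in the library labelled WT 2. The 6 leukocyte markers summed to 322 CPM in HET 1 and 263 in HET 2, against 289 in WT 1 and 13.6 in the library labelled WT 2. The 7 fibroblast markers summed to 3908 CPM in HET 1 and 4903 in HET 2, against 6515 in WT 1 and 21728 in the library labelled WT 2. These 3 groups had no gene at 0 in any library, and their order over the libraries differed from that of the members. The 10 epithelial markers, of the labelled tumour cell, summed to 2819 CPM in HET 1 and 2407 in HET 2, against 3789 in WT 1 and 3809 in the library labelled WT 2. The 5 endothelial markers summed to 255 CPM in HET 1 and 471 in HET 2, against 327 in WT 1 and 61.2 in the library labelled WT 2, with Cldn5 at 0 in at least 1 library. The endothelial sum was thus high in HET 2 and WT 1 and low in HET 1 and the library labelled WT 2, as the members were. The 3 neutrophil markers were so too, with sums of 13.6 CPM in HET 1 and 17.3 in HET 2, against 19.8 in WT 1 and 2.42 in the library labelled WT 2. The remaining lists were low: the T and NK cell markers summed to 25.8 CPM in HET 1 and 28.1 in HET 2, against 8.11 in WT 1 and 2.28 in the library labelled WT 2, and the B and plasma cell and erythroid lists reached at most 20 CPM in any library. In these 3 lists, too, HET 2 exceeded HET 1 and WT 1 exceeded the library labelled WT 2. Cd79a, Cd79b, Nkg7, Hbb-bs and Hba-a2 were at 0 in at least 1 library. The part of cell makeup in the members' values was not tested.

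Genes of ribosome production and translation outside the family were read from the same fit, and 0 passed the adjusted test in any list. Of 20 other messages known to carry a TOP tract, such as translation factors, 17 had fold changes below 0, with a median of -0.38. Btf3, part of the nascent polypeptide complex, had 65.6 CPM in HET 1 and 118 in HET 2, against 196 in WT 1 and 131 in the library labelled WT 2 and a log2 fold change of -0.83 ± 0.40 (SE). Of 44 ribosome biogenesis factors, 36 lay below 0, with a median of -0.26. Of 24 initiation factors, 21 lay below 0, with a median of -0.23, and Eif2s1, the alpha subunit of eIF2, had 45.6 CPM in HET 1 and 50.7 in HET 2, against 95.5 in WT 1 and 71.9 in the library labelled WT 2 with a log2 fold change of -0.80 ± 0.30 (SE; edgeR unadjusted p = 0.036, adjusted p = 0.986). Of all genes tested, 47.3% lay below 0, with a median of 0.04, and of protein-coding genes tested 52.9%, with a median of -0.035. Other protein-coding genes of at least 10 CPM had medians between -0.14 and -0.08 over the transcript length classes. The lists here and below were not read under other scalings or without single libraries, on which the members' direction depended.

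The order of libraries was shared by some of these lists and not by others. The median log2 ratio of HET 2 over HET 1 was 0.58 for the other TOP messages, 0.67 for biogenesis factors and 0.50 for initiation factors, against -0.09 for 18 genes of the mTOR and S6 kinase pathway. For WT 1 over the library labelled WT 2 the medians were 0.71, 0.49, 0.26 and 0.07. The mitochondrial ribosomal proteins, which serve the separate ribosome of that organelle, had medians of 0.73 (49 large-subunit genes) and 0.70 (30 small-subunit genes) for HET 2 over HET 1, and 0.24 and 0.17 for WT 1 over the library labelled WT 2. Their fold changes of HET over WT lay below 0 in 30 of 49 and 22 of 30, with medians of -0.10 and -0.15. Of 11 RNA polymerase I genes, 8 lay below 0, with a median of -0.20, and their library ratios had medians of 0.42 and 0.10. Of the 18 mTOR and S6 kinase genes, 14 lay below 0, with a median of -0.196. Over all genes tested, the median was -0.005 for HET 2 over HET 1 and 0.17 for WT 1 over the library labelled WT 2. Over tested protein-coding genes these medians were 0.024 and 0.065. In the WT ratio the mitochondrial ribosomal proteins were thus near the median of all genes.

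By the rule for named genes, the members of smallest p in each list were also read, and none of them passed the adjusted test. The log2 fold change (SE) was -0.76 ± 0.32 for Vim, a TOP message that encodes vimentin, and -0.64 ± 0.28 for Eif5. It was -0.59 ± 0.28 for Utp20 and -0.70 ± 0.34 for Ltv1, assembly factors of the small subunit. In the mTOR pathway it was -0.60 ± 0.27 for Akt1, a kinase upstream of mTOR, and -0.52 ± 0.30 for Eif4ebp1, a repressor of cap-dependent translation that mTOR phosphorylates. Rrn3 and Taf1b, initiation factors of RNA polymerase I, had -0.60 ± 0.33 and -0.44 ± 0.40. Among mitochondrial ribosomal proteins, Mrpl28 and Mrps18a had -0.67 ± 0.36 and -0.77 ± 0.40, whereas Mrpl48 and Mrps24 stood higher in HET, at 0.97 ± 0.43 and 0.68 ± 0.41.

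The 3 listed ribosomal components that the symbol rule leaves out did not share 1 pattern. Their median log2 fold change was -0.01, with 2 of them below 0, and the 2 of smallest p are given here. Near-identical copies were not sought for them. Fau, whose product is a ubiquitin-like fusion with Rps30, had 33.8 CPM in HET 1 and 20.6 in HET 2, against 48.8 in WT 1 and 49.8 in the library labelled WT 2. It had a log2 fold change of -0.86 ± 0.34 (SE; unadjusted p = 0.0464, adjusted p = 0.986), and HET 2 was its lowest library. Rack1, the scaffold on the head of the small subunit, had 318 CPM in HET 1 and 579 in HET 2, against 530.2 in WT 1 and 283 in the library labelled WT 2. As in most members, HET 2 and WT 1 were its high libraries. The genes outside the family with the profile closest to the members' median over the 4 libraries, among 5299 genes averaging 5 or more in log2 CPM, were Ube2c, Eif3k and Wdr43, at Euclidean distances of 0.06, 0.08 and 0.09 in centred log2 CPM. Ube2c had 35.8 CPM in HET 1 and 70.7 in HET 2, against 74.1 in WT 1 and 46.4 in the library labelled WT 2. Eif3k had 41.8 CPM in HET 1 and 83.0 in HET 2, against 87.7 in WT 1 and 57.2 in the library labelled WT 2. With 4 libraries such likeness is a description of these libraries only.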

How the data were processed

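RNA from 4 sorted tumour libraries was sequenced, and the authors deposited 1 table of estimated counts per gene in whole numbers. Per the submitters' processing notes the tool was Salmon and the build GRCm38.p5. No source used here gives the Salmon version, the annotation or the strand setting, and how reads were divided among near-identical copies is therefore uncertain. Of 51826 rows, 51633 matched GENCODE M21. The members and gene lists were chosen with earlier results of these data known.

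Genes passing filterByExpr were tested with edgeR 4.0.16 (R 4.3.3): TMM scaling, the quasi-likelihood test on genotype, and Benjamini-Hochberg adjustment over all 21607 genes. The fit had 2 residual degrees of freedom and a biological coefficient of variation of 0.46. The scripts were tested on simulated data. Single sums were compared by exact permutation over libraries (SciPy 1.17.1), and shares have exact Clopper-Pearson 95% intervals. CPM is the count scaled to effective library size, and a count of 0 allows up to 3 counts. Near-identical copies were found with BLASTN 2.17.0. Promoter windows were read from RefSeq (GRCm38.p6).

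Named members were 14 of known role, the paralogue pairs, the 6 of smallest p in each direction, the 5 highest and 5 lowest per length, and the 4 most and 4 least variable. The 2 of smallest p in each other list and the 3 nearest profiles were named as well. Alternatives were other scalings and filters, DESeq2 1.42.0, limma 3.58.1 (voom), robust edgeR, protein-coding genes only, summed copies, and leaving out each library.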

Additional observations from a re-analysis of the deposited data

How the results depend on the processing

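The comparison of genotypes rests on 2 libraries each, 1 of which has Elf5 below both HET libraries, and on how reads were divided among copies. In all alternatives run, 0 members passed an adjusted p under 0.05. Over all genes, 324 passed with no filter beyond 1 count, 134 with DESeq2, and between 0 and 657 when 1 library was left out (657 without WT 1 and 9 without the library labelled WT 2). The members' median stayed below 0 in every alternative except without HET 1 (0.09) and without WT 1 (0.16), and the large-subunit median ran from -0.79 to 0.23 when 1 library was left out. Ranked with the length of the longest coding transcript, 6 of the 10 highest members were shared. The cause of these shifts was not tested. No paired analysis was possible because the titles of both WT libraries end in T1 and those of the HET libraries in T1 and T2, so the genotypes share no more than 1 such number.

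Of 45 named members with a fold change, 32 kept their sign in all 13 alternatives other than leaving out a library. With upper-quartile scaling the log2 fold change was 0.012 for Rpl23a, 0.019 for Rps27 and 0.006 for Rps27l. With total counts only it was 0.063 for Rpl19, 0.006 for Rpl23, 0.11 for Rpl23a, 0.042 for Rpl39, 0.051 for Rplp0, 0.097 for Rplp1, 0.12 for Rps27 and 0.12 for Rps27l. Without the filter it was -0.033 for Rpl36a and -0.003 for Rps19, and with voom -0.30 for Rpl27. With the named -ps copies added it was 0.19 for Rpl19 and 0.31 for Rpl39. With all near-identical copies added, an alternative chosen after seeing the data, it was -0.19 for Rpl12, 0.19 for Rpl19, 0.23 for Rpl23, -0.017 for Rpl35 and 0.34 for Rpl39. The reading of members with copies under 5% was also chosen after seeing the data.

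Without 1 library at a time, 30 named members changed sign. Their log2 fold changes had the lowest and highest values Rpl10 -0.28 to 0.55, Rpl11 -1.08 to 0.094, Rpl12 -0.18 to 0.34, Rpl19 -0.68 to 0.35, Rpl23 -0.77 to 0.59, Rpl23a -0.40 to 0.21, Rpl24 -1.17 to 1.04, Rpl26 -0.28 to 0.45. The next were Rpl27 -1.68 to 0.82, Rpl3 -0.80 to 0.29, Rpl30 -1.84 to 0.076, Rpl32 -0.63 to 0.84, Rpl35 -0.048 to 0.62, Rpl36 -0.79 to 0.24, Rpl36a -0.55 to 0.49, Rpl39 -0.94 to 0.47. Further ranges were Rpl7 -1.20 to 0.63, Rplp0 -0.55 to 0.14, Rplp2 -0.72 to 0.19, Rps14 -0.16 to 0.70, Rps15a -1.004 to 0.28, Rps19 -0.65 to 0.49, Rps2 -2.46 to 0.22, Rps21 -0.46 to 0.79. The last were Rps27 -0.50 to 0.41, Rps27l -0.72 to 0.27, Rps3a1 -0.82 to 0.12, Rps4x -0.23 to 0.70, Rps6 -0.94 to 0.16, Rpsa -0.80 to 0.016.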
